A study of Arabidopsis thaliana with 12 samples.

Results

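WRKY6 (AT1G62300), WRKY22 (AT4G01250) and WRKY53 (AT4G23810) are transcription factors of Arabidopsis stress and defence responses. Each was followed through 1 probe set of the Affymetrix ATH1 array, 264746_at for WRKY6, 255568_at for WRKY22 and 254231_at for WRKY53. A probe set was taken where the platform annotation paired it with exactly 1 gene and that gene was one of the 3. They are 3 of 13513 probe sets paired with a single gene.

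WRKY proteins bind the W-box, a short promoter element, through a domain that carries the WRKY peptide, and many of them regulate one another's genes. WRKY6 acts in leaf senescence, pathogen defence and phosphate transport. WRKY22 lies downstream of the MAP kinase cascade that the flagellin receptor starts, and WRKY53 is a regulator of leaf senescence whose transcript has been linked to hydrogen peroxide.

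The study measured total RNA of whole seedlings, 5 days old, on 12 arrays in 4 groups of 3. The groups were seedlings that carry a Zat12 transgene and received H2O2, wildtype seedlings that received H2O2, untreated Zat12 seedlings and untreated wildtype seedlings, the last group being the Columbia accession. Zat12 seedlings have the Columbia background and express the zinc finger protein Zat12 constitutively from the 35S promoter of cauliflower mosaic virus, which is active in most tissues. Treatment was 20 mM H2O2 for 1 hour, and every seedling grew in liquid medium. The labels name no transgenic line, so it is not known here whether Zat12 arrays come from more than 1 line. Nor do they say whether replicates are separate cultures, so the p-values cover only array-to-array spread, which may be technical. The level of the over-expressed gene was not analysed here.

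Values are linear MAS5 signals, which the authors scaled to the same average on every array, and this scaling hides any shift common to most transcripts. Median signals lay between 40.7 and 44.9. On the array labelled Zat12 replicate 2, 28.1% of cells (6408) were empty. The cells of WRKY22 and WRKY53 were among them, so untreated Zat12 rests on 2 arrays for these genes and on 3 for WRKY6. Of the seedling markers listed, 2 of 5 shoot genes and 2 of 6 root genes had a named probe set. Rubisco activase (RCA) gave 5871 to 7603 over the 12 arrays, PYK10, a root beta-glucosidase, gave 5050 to 8094, the shoot gene LHCB4.3 gave 121 to 256, and the root gene EXPA7 gave 36.8 to 112. In RNA of whole seedlings, fewer cells of a type and less RNA per cell cannot be told apart.

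After H2O2 the signals of all 3 genes were called higher in both genotypes, the call of WRKY53 in Zat12 being lost under several settings. WRKY6 was 5.67 times as high in treated as in untreated Zat12 seedlings by mean signal, and 7.96 times as high in treated as in untreated wildtype. WRKY22 and WRKY53 had ratios between 2.03 and 2.59. The genotype itself moved none of the 3 past the threshold, either without treatment or under H2O2.

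WRKY6, the senescence and phosphate regulator, gave 235, 228 and 221 in the 3 arrays of treated Zat12. It gave 295, 269 and 247 in treated wildtype. Untreated Zat12 had 29.4, 47.2 and 43.9, and untreated wildtype had 25.1, 36.5 and 40.4. Every treated array lay far above every untreated one, and the arrays of treated Zat12 were close together. The means were 228 ± 7.2 in treated Zat12, 270.4 ± 23.9 in treated wildtype, 40.2 ± 9.49 in untreated Zat12 and 34 ± 7.91 in untreated wildtype (SD, n = 3 each).

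Differences were tested on log2(signal + 3) with limma over all 13647 probe sets above a low-signal filter, and calls were made where the Benjamini-Hochberg adjusted p was below 0.05. WRKY6 rose by 2.44 in Zat12 (SE 0.17, 95% interval 2.08 to 2.81, adjusted p = 6.83e-09). In wildtype it rose by 2.91 (SE 0.17, 95% interval 2.54 to 3.27, adjusted p = 7.11e-10). These are differences of log2 values. Only 137 tested probe sets had a larger increase in Zat12 and 74 in wildtype.

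WRKY22, the factor downstream of the flagellin receptor, gave 188, 203 and 163 in treated Zat12 and 162, 157 and 129.9 in treated wildtype. It gave 80.4 and 62.1 in untreated Zat12 and 58.1, 81.9 and 69.2 in untreated wildtype. Treated and untreated arrays did not overlap in either genotype, and the untreated genotypes covered the same range. WRKY22 averaged 185 ± 20.1 in treated Zat12 (SD, n = 3), 149.5 ± 17.2 in treated wildtype (SD, n = 3), 71.3 ± 12.9 in untreated Zat12 (SD, n = 2) and 69.7 ± 11.9 in untreated wildtype (SD, n = 3). It rose by 1.34 in Zat12 (SE 0.17, 95% interval 0.98 to 1.70, limma adjusted p = 1.83e-05). In wildtype it rose by 1.07 (SE 0.15, 95% interval 0.75 to 1.40, limma adjusted p = 6.04e-05).

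WRKY53, the senescence regulator, gave 32.8, 66.6 and 47.3 in treated Zat12 and 33.7, 33.2 and 39.4 in treated wildtype. Untreated Zat12 had 25.8 and 22.4, and untreated wildtype had 15.5, 19.6 and 13.4. The replicates of treated Zat12 were far apart, with no pair of the 3 close together. Even so, no treated array fell into the untreated range of its genotype. WRKY53 averaged 48.9 ± 17.0 in treated Zat12 (SD, n = 3), 35.4 ± 3.41 in treated wildtype (SD, n = 3), 24.1 ± 2.40 in untreated Zat12 (SD, n = 2) and 16.2 ± 3.15 in untreated wildtype (SD, n = 3).

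**Figure D1:**
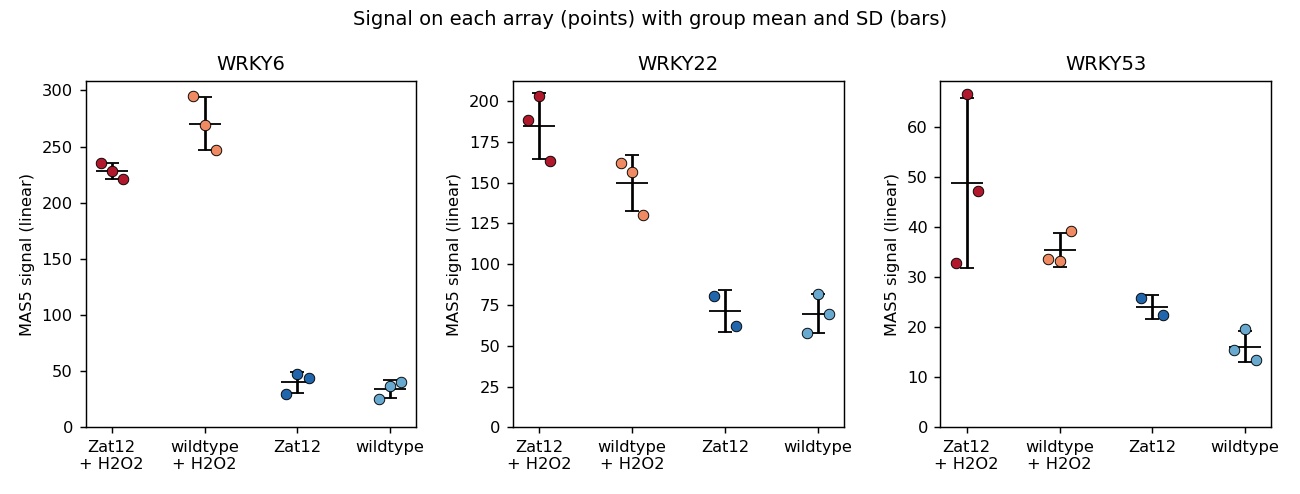
Linear MAS5 signal of WRKY6, WRKY22 and WRKY53 on each array, with a point per array and bars for the group mean and SD (n = 3, or 2 for WRKY22 and WRKY53 in untreated Zat12). All treated arrays lie above all untreated arrays of the same genotype, and WRKY53 in treated Zat12 spreads from 32.8 to 66.6.

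WRKY53 rose by 0.89 in Zat12 (SE 0.28, 95% interval 0.30 to 1.48, limma adjusted p = 0.0366) and by 1.01 in wildtype (SE 0.25, 95% interval 0.49 to 1.54, limma adjusted p = 0.00739). Its mean log2 value of 5.00 was just above the filter at 4.96, and it passed through its treated groups, since the group means were 4.76 in untreated Zat12 and 4.25 in untreated wildtype. With no filter, the adjusted p was 0.0833 in Zat12 and 0.0235 in wildtype. The call in Zat12 also ended without Zat12 H2O2 replicate 2 (difference 0.65, adjusted p = 0.152) or replicate 3 (0.88, adjusted p = 0.091). It ended too with the replicate number as a block (0.78, limma adjusted p = 0.0533). Without Zat12 replicate 1 or 3 the difference was 0.98 or 0.80 and uncalled, each resting on 1 untreated array. In wildtype the call held without each array in turn, with values between 0.91 and 1.14.

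**Figure D2:**
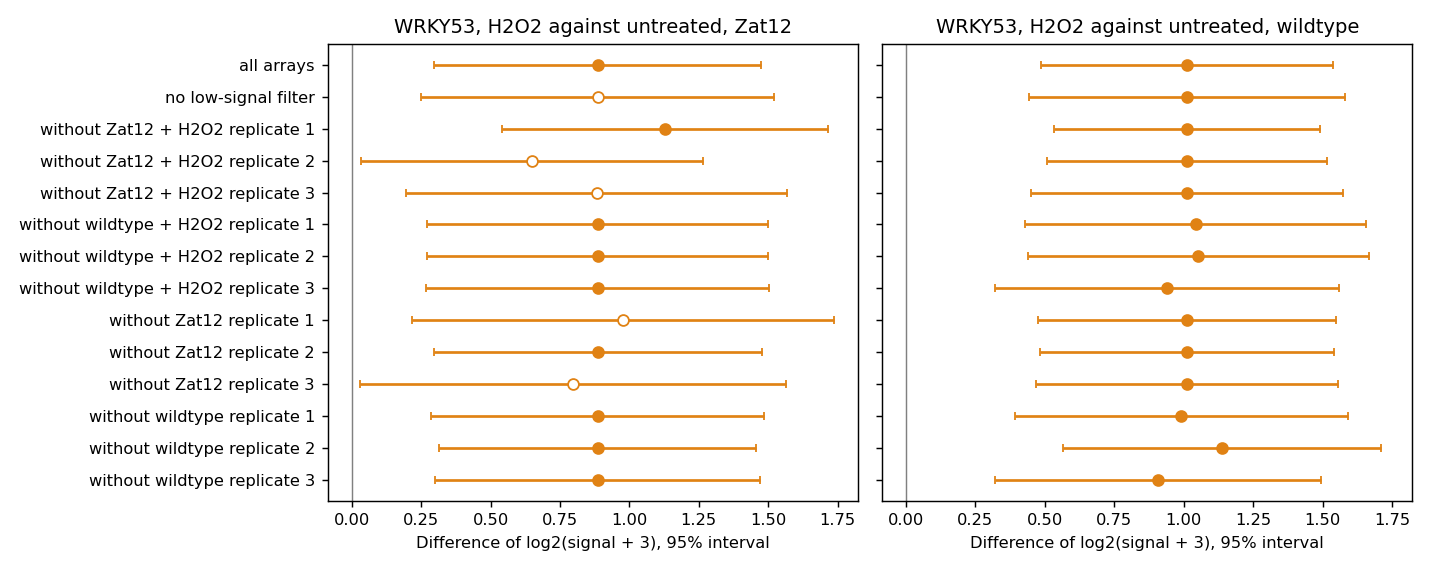
Difference of WRKY53 in log2(signal + 3) between treated and untreated seedlings, in Zat12 (left) and wildtype (right), with 95% intervals, for all arrays, with no low-signal filter and without each array in turn (filled points, adjusted p below 0.05). In Zat12 the values run from 0.65 to 1.13 and 5 of the 14 points are open, and in wildtype all points are filled. Omitting an array of the other genotype, or Zat12 replicate 2, which was empty for WRKY53, leaves the difference unchanged and cannot test it. Of the Zat12 arrays with a value, only the omission of Zat12 H2O2 replicate 1 kept the call in Zat12. Omitting Zat12 replicate 1 or 3 leaves 1 untreated array.

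WRKY6 and WRKY22 were thus called higher in both genotypes, where 8.16% of all tested probe sets were called higher in Zat12 and 9.59% in wildtype. WRKY53 was called as well, but it was tested only because its treated groups lifted it over the filter, so the number of members called is not read against those shares. Arrays did not overlap, with the treated ones higher, for each of the 3 genes in both genotypes, and for 13.9% of tested probe sets in Zat12 and 14.6% in wildtype, which for WRKY53 has the same limit. The median difference over all tested probe sets was -0.09 in Zat12 and -0.07 in wildtype. A difference above 1 was found for 552 tested probe sets in Zat12, 4.04%, and for 610 in wildtype, 4.47%. WRKY22 stood at place 382 in Zat12 and 561 in wildtype, counted from the largest increase, and WRKY53 at place 633 in Zat12 and 605 in wildtype.

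**Figure D3:**
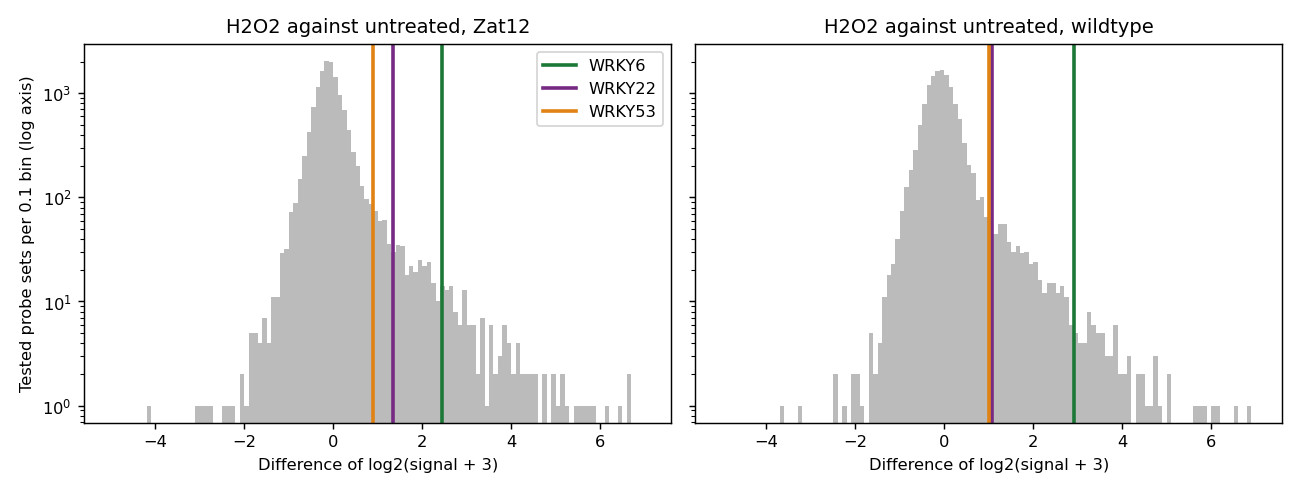
Distribution of the difference in log2(signal + 3) between treated and untreated seedlings over the 13647 tested probe sets, in Zat12 (left) and wildtype (right), in bins of 0.1 with a log count axis, and lines for the 3 WRKY genes. WRKY6 lies in the upper tail at 2.44 and 2.91, and WRKY22 and WRKY53 lie between 0.89 and 1.34.

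The members differed in the size of their response. The 95% interval of WRKY6 did not meet those of WRKY22 or WRKY53 in either genotype, while those of WRKY22 and WRKY53 overlapped in both. The order of the 4 group levels differed as well. WRKY6 was highest in treated wildtype, followed by treated Zat12, and WRKY22 and WRKY53 were highest in treated Zat12, followed by treated wildtype. Untreated Zat12 came next and untreated wildtype was lowest for each gene. Neighbours in this order overlapped between the untreated genotypes for WRKY6 and WRKY22, and between the treated genotypes for WRKY53. The spread within groups, as the residual SD of the log2 values, was 0.25 for WRKY6, 0.20 for WRKY22 and 0.30 for WRKY53, against a median of 0.19 over tested probe sets. For WRKY53, 86.3% of tested probe sets had a smaller spread.

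The array control for 25S ribosomal RNA moved with the treatment in wildtype. Its signal was 125.7 to 295 in treated and 32.9 to 125.3 in untreated wildtype, and 133 to 286 in treated and 96.3 to 275 in untreated Zat12. With the 25S signal as a covariate, the H2O2 differences in Zat12 were 2.39 for WRKY6, 1.26 for WRKY22 and 1.00 for WRKY53, with a largest limma adjusted p of 0.0236. In wildtype they were 2.70 for WRKY6, 0.90 for WRKY22 and 1.25 for WRKY53, with a largest limma adjusted p of 0.0401. EXPA7, an expansin of root hairs and 1 of the 2 measured root markers, fell by 1.18 in treated Zat12 (limma adjusted p = 9.42e-05) and was at -0.48 in treated wildtype (adjusted p = 0.0614). The other root marker, PYK10, was at -0.19 in treated Zat12 (limma adjusted p = 0.301) and -0.23 in treated wildtype (adjusted p = 0.173). The summed signal of the 2 root markers, nearly all of it from PYK10, was 5680 to 5954 in treated Zat12 and 5087 to 6232 in treated wildtype. In untreated seedlings it was 6711 to 6782 in Zat12 and 5748 to 8168 in wildtype, and neither marker was at 0. The part of the root markers in the WRKY results was not tested.

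Zat12 over-expression without treatment asked whether the transgene alone alters the 3 genes. None was called by limma, and 0 had an unadjusted p below 0.05, beside 1.22% of tested probe sets called in either direction. The difference between Zat12 and wildtype was 0.22 for WRKY6 (95% interval -0.14 to 0.59, adjusted p = 0.691) and 0.03 for WRKY22 (95% interval -0.33 to 0.39, adjusted p = 0.97). For WRKY53 it was 0.51, with an interval of -0.08 to 1.1 and an adjusted p of 0.505. Both measured Zat12 arrays of WRKY53 lay above all 3 wildtype arrays, which groups without overlap did in one direction or the other for 18.6% of tested probe sets. The interval for WRKY53 holds both 0 and a 2-fold difference, a log2 value of 1. It left out 0 with the replicate number as a block (0.06 to 1.18) and with no mean-variance trend in limma (0.009 to 1.01). Without wildtype replicate 2 it did so too (0.010 to 1.26). Under the other settings the interval held 0, and this difference of WRKY53 stayed uncalled under each. A shoot marker moved with the genotype. LHCB4.3, a light-harvesting antenna protein, averaged 143 ± 0.93 in untreated Zat12 and 239 ± 18.1 in untreated wildtype (SD, n = 3 each), and fell by 0.72 (limma adjusted p = 0.00192). Under H2O2 it averaged 132 ± 9.63 in Zat12 and 226 ± 10.4 in wildtype (SD, n = 3 each), and fell by 0.77 (limma adjusted p = 9.52e-04). The other shoot marker, RCA, was at 0.07 in untreated Zat12 and 0.04 in treated Zat12 relative to wildtype (limma adjusted p = 0.851 and 0.886). The summed signal of both shoot markers, nearly all of it from RCA, was 6899 to 7524 in treated Zat12 and 6887 to 7194 in treated wildtype. In untreated seedlings it was 6698 to 7492 in Zat12 and 6127 to 7823 in wildtype, and neither marker was at 0. The part of the shoot markers in the WRKY results was not tested.

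Under H2O2 the genotypes were also compared directly. WRKY6 was at -0.24 in treated Zat12 relative to treated wildtype (95% interval -0.61 to 0.12, limma adjusted p = 0.529). WRKY22 was at 0.30 (95% interval -0.02 to 0.62, adjusted p = 0.332) and WRKY53 at 0.38 (95% interval -0.14 to 0.91, adjusted p = 0.471). The arrays of WRKY6 did not overlap, at 221 to 235 in treated Zat12 and 247 to 295 in treated wildtype. Those of WRKY22 did not overlap either, at 163 to 203 in treated Zat12 and 129.9 to 162 in treated wildtype, in the opposite direction. Such separation was found in one direction or the other for 23.5% of tested probe sets, and 2.92% were called. In this limma fit, which did not pair the arrays, no member was called, and 0 of 3 had an unadjusted p below 0.05. With the replicate number as a block in the fit of all 12 arrays, the 95% interval of WRKY22 was 0.004 to 0.60 and left out 0. Those of WRKY6 (-0.60 to 0.12) and WRKY53 (-0.15 to 0.92) held 0. Fitted on the compared groups only, the intervals of WRKY6 (-0.48 to -0.005) and WRKY22 (0.02 to 0.58) left out 0. That of WRKY53 (-0.10 to 0.87) held 0. No member was called in either of these fits.

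The interaction, the H2O2 response of Zat12 minus that of wildtype, asked whether the response depends on the genotype. It was -0.46 for WRKY6 (95% interval -0.98 to 0.05, limma adjusted p = 0.728), 0.27 for WRKY22 (95% interval -0.21 to 0.75, adjusted p = 0.833) and -0.13 for WRKY53 (95% interval -0.92 to 0.66, adjusted p = 0.961). By limma 0 of 3 members were called, 0 had an unadjusted p below 0.05, and 0.11% of tested probe sets were called in either direction. The intervals still hold a response of WRKY6 that is weaker in Zat12 by nearly 1 on the log2 scale. Without Zat12 replicate 1 the WRKY6 value was -0.66, with a 95% interval of -1.13 to -0.18 that left out 0, and it stayed uncalled (limma adjusted p = 0.662). The 5 comparisons share arrays, so their values are not independent.

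**Figure D4:**
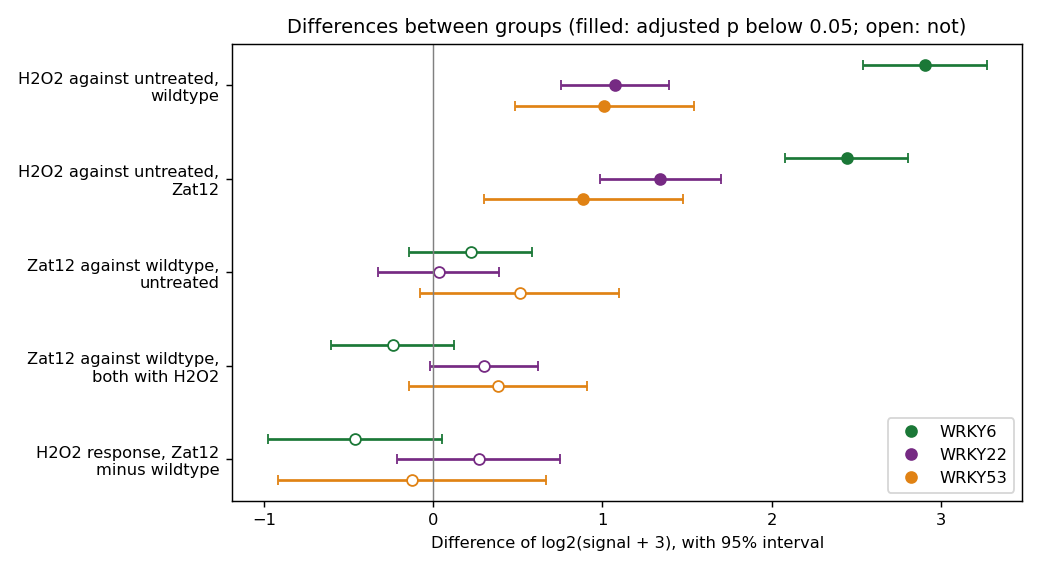
Difference of log2(signal + 3) with 95% interval for WRKY6, WRKY22 and WRKY53 in each of the 5 comparisons, filled where the limma adjusted p was below 0.05. The 6 points for H2O2 against untreated are filled and lie between 0.89 and 2.91, and the other 9 are open, with intervals that include 0.

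Other WRKY genes were measured through few named probe sets. Of 67 numbered WRKY genes in the RefSeq gene table, 6 had a probe set paired with that gene alone, the 3 members and WRKY20, WRKY42 and WRKY47. WRKY20 was at -0.24 in Zat12 (limma adjusted p = 0.29) and -0.04 in wildtype (0.876) after H2O2. It had 66.6 to 76.6 in treated Zat12, 87.5 to 97.8 in treated wildtype, 81.2 and 89.9 in untreated Zat12 and 84.2 to 102.7 in untreated wildtype. WRKY47, of the same subgroup of the family as WRKY6, was at -0.34 in Zat12 (0.134) and -0.32 in wildtype (0.139). It had 46.0 to 49.9 in treated Zat12, 43.0 to 52.4 in treated wildtype, 53.8 to 68.2 in untreated Zat12 and 52.0 to 65.1 in untreated wildtype. WRKY42, a repressor of the phosphate exporter gene PHO1 as WRKY6 is, lay between 2.05 and 14.9 on the 12 arrays and below the filter. WRKY1 was found by its synonym, under the symbol ZAP1, after the values were seen. After H2O2 it was at -0.24 in Zat12 (limma adjusted p = 0.455) and fell by 0.53 in wildtype (adjusted p = 0.0363), with 34.9 to 43.4 in treated and 48.1 to 71.0 in untreated wildtype.

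Lists of pathway genes around the 3 factors were sparsely covered by named probe sets. Of 62 genes in 5 lists, 6 had one, and the lists of salicylic acid defence and of phosphate transport had none. BIK1, a receptor-associated kinase of the flagellin pathway, was the 1 tested gene of the 16 in the MAP kinase and flagellin list. It gave 433, 425 and 449 in treated Zat12, 418, 416 and 383 in treated wildtype, 206 and 190.0 in untreated Zat12 and 150.4, 150.0 and 171 in untreated wildtype. Treated arrays were all above untreated ones, and BIK1 rose by 1.13 in Zat12 (SE 0.12, limma adjusted p = 1.64e-06) and by 1.35 in wildtype (SE 0.10, adjusted p = 4.2e-08). SAG101, the 1 tested gene of 18 in the senescence list and a lipase-like defence protein, was at -0.17 in Zat12 (limma adjusted p = 0.775) and 0.08 in wildtype (0.882). IKU1, the 1 tested gene of 7 in the list of VQ-motif proteins, which bind WRKY factors, was at 0.01 in Zat12 (0.975) and 0.06 in wildtype (0.819). EFR, SAG29 and VQ10 lay below the filter.

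Named genes with the most similar profile were found for each member as the 4 with the smallest root mean square difference of centred log2 values among 7359 tested probe sets with 1 gene, over 11 or 12 arrays. For WRKY6 these were AT1G69890 (0.22), SUFE2 (0.22), which belongs to iron-sulfur cluster assembly, AT1G55450 (0.26) and AT5G39670 (0.27), where the median over all candidates was 1.42. Their H2O2 differences lay between 2.19 and 2.96 in Zat12 and between 2.46 and 2.77 in wildtype. For WRKY22 they were AT3G47550 (0.16), AT5G41100 (0.16), AT1G73740 (0.17) and BZIP60 (0.17), a transcription factor of the unfolded protein response, against a median of 0.71. Their H2O2 differences were 1.06 to 1.19 in Zat12 and 1.00 to 1.34 in wildtype, all called. For WRKY53 they were AT5G46710 (0.23), AT4G08850 (0.23), AT1G23830 (0.24) and AT1G15010 (0.26), against a median of 0.66. AT1G23830 was at 0.63 in Zat12 with a limma adjusted p of 0.0894, and rose by 1.1 in wildtype. The likeness is a description, and the profiles share the same arrays and the same step between treated and untreated seedlings.

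**Figure D5:**
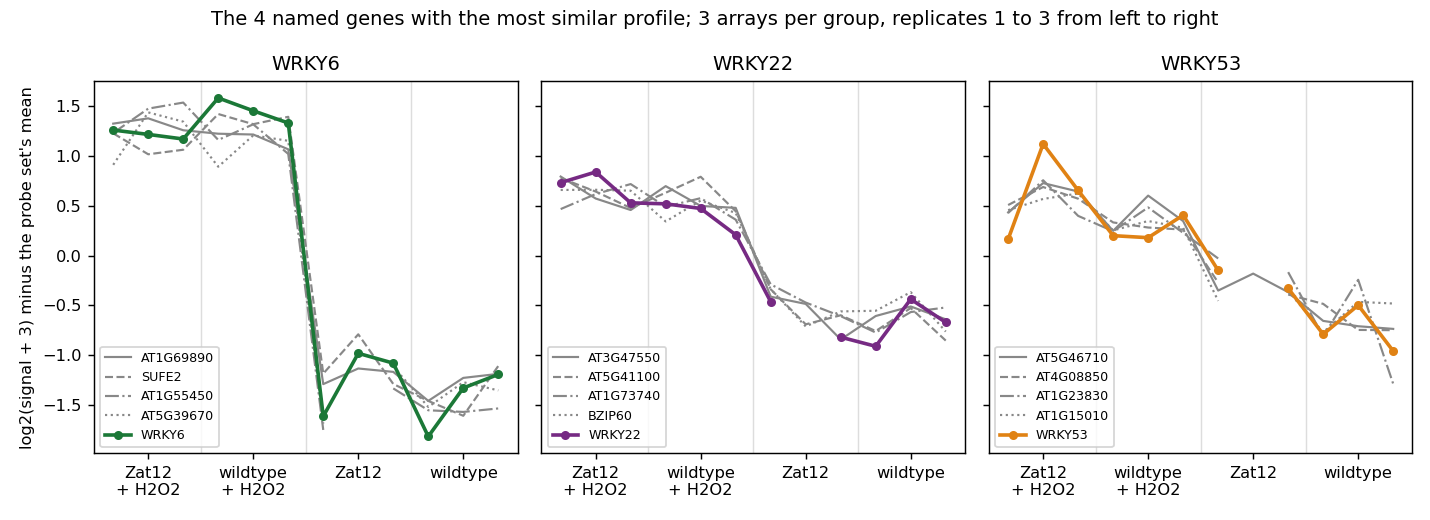
Centred log2(signal + 3) of each WRKY gene (coloured) and of the 4 named genes most like it (grey) over the 12 arrays, grouped as treated Zat12, treated wildtype, untreated Zat12 and untreated wildtype, with gaps at empty cells. The step between treated and untreated arrays is largest for WRKY6, and the grey profiles stay within a root mean square difference of 0.27 of their member.

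The nearest genes on the chromosome were set beside each member. WRKY6 lies on chromosome 1, and WRKY22 and WRKY53 on chromosome 4. Of the 12 nearest tested genes with a name, 2 on each side of each member, 1 rose and 2 fell with H2O2 in each genotype. Of all tested probe sets, 8.16% rose and 9.12% fell in Zat12, and 9.59% rose and 12.4% fell in wildtype, so the counts of 1 and 2 are near this background. AT1G62422, 22 genes from WRKY6, was the one that rose, by 0.80 in Zat12 (limma adjusted p = 0.00212) and 0.66 in wildtype (adjusted p = 0.0079). AT4G23820, next to WRKY53, was at -0.53 in Zat12 (limma adjusted p = 0.00122) and -0.76 in wildtype (adjusted p = 2.77e-05). AT4G23740 was at -0.61 in Zat12 (limma adjusted p = 0.0191) and -0.90 in wildtype (adjusted p = 8.65e-04). These 3 were named after their values were seen.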

How the data were processed

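The authors deposited 1 intensity for each probe set on each array, a linear MAS5 signal, per the submitters' processing notes. The version, the detection calls and the annotation they used are not given in the sources used here. Of 22810 probe sets, 64 controls were left out of the tests. The remaining 22746 were named by the platform annotation where it gave exactly 1 gene (13513) and left unnamed where it gave several (503) or none (8730), with symbols updated from RefSeq gene IDs (13436 found). Gene positions were used only to order genes along the chromosomes, and no sequences were used.

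Signals were turned into log2(signal + 3), 3 being the 10th percentile of all values. Probe sets with a mean above the 40th percentile (4.96, a signal of 28.1) were tested. limma 3.58.1 in R 4.3.3 fitted 4 groups with a mean-variance trend (9.12 prior degrees of freedom) and Benjamini-Hochberg adjustment over 13647 probe sets. The fit was tested on simulated data. Python 3.11.15, pandas 2.3.3 and matplotlib 3.10.9 made the tables and figures. Empty cells were left empty and no value was imputed.

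The genes named are the 3 members, other numbered WRKY genes, called members of the pathway lists and, for each member, the 4 most similar named genes. Named outside that rule were the uncalled or untested members of the pathway lists, the seedling markers, ZAP1 and 3 flanking genes. The labels give no meaning to the replicate numbers. In the data, same-numbered arrays of treated Zat12 and treated wildtype deviated together (3 of 3 pairs above 0.1, 0.12 to 0.14, across probe sets). For that comparison a fit with the replicate number as a block is therefore given beside the main fit, which did not pair them. The block was shared by all 12 arrays, so this is not a paired test of the treated arrays alone. Same-numbered untreated arrays of the genotypes did not deviate together (-0.25 to -0.03). The members, lists and tests were chosen with earlier results of these data known. With 3 arrays in a group, precision is limited by their number. Each comparison was repeated with quantile or median scaling, other offsets and filters, no trend, only the compared groups, the 25S signal as a covariate, a block for the replicate number, and without single arrays.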

Additional observations from a re-analysis of the deposited data

How the results depend on the processing

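Not every alternative could move a difference. Omitting an array of a group outside a comparison of 2 groups left the value as it was. So did changing the filter, the trend or the groups fitted, and in these cases only the p-value could change. Of 322 values of the 15 differences under the alternatives, 316 kept their side of the threshold. The 6 that did not concern WRKY53 after H2O2 in Zat12, with no filter (0.89, limma adjusted p = 0.0833), with the replicate number as a block (0.78, adjusted p = 0.0533) and without 1 of 4 arrays. Without each array in turn that difference ran from 0.65 to 1.13, with an adjusted p between 0.0117 and 0.173. Leaving out Zat12 replicate 1 or 3 left WRKY53 and WRKY22 with 1 untreated Zat12 array, which is assumed to vary like the other groups. The other uncalled differences stayed uncalled, though the sign turned for WRKY22 between untreated genotypes (-0.15 to 0.21) and for the WRKY53 interaction (-0.36 to 0.12). Without single arrays, the WRKY6 interaction ran from -0.66 (without Zat12 replicate 1, unadjusted p = 0.00973) to -0.28 (without wildtype replicate 1), and its unadjusted p was 0.0297 without wildtype replicate 3 (-0.59). The WRKY22 interaction ran from 0.09 to 0.45 (without Zat12 replicates 3 and 1), WRKY6 between untreated genotypes from 0.04 (without wildtype replicate 1) to 0.42 (without Zat12 replicate 1), and WRKY53 under H2O2 from 0.15 to 0.63 (without Zat12 H2O2 replicates 2 and 1). WRKY53 failed the filter at the 60th percentile and has no value there. The called H2O2 differences of WRKY6 ran from 2.22 to 2.57 in Zat12 and 2.63 to 3.03 in wildtype, and those of WRKY22 from 1.17 to 1.52 in Zat12 and 0.90 to 1.19 in wildtype. With the block, the differences between treated genotypes stayed uncalled (adjusted p = 0.504 for WRKY6, 0.283 for WRKY22 and 0.469 for WRKY53). In the other comparisons not every same-numbered pair correlated above 0.1: 2 of 3 did for treated with untreated Zat12 (0.09 to 0.23), where each of the 6 arrays correlated best with its own number, 1 of 3 in wildtype (-0.06 to 0.10) and 0 of 3 between untreated genotypes (-0.25 to -0.03). The block changed no other call of the 3 genes.

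The background counts moved more. Probe sets called higher after H2O2 were 923 to 1205 in Zat12 (1114 with all settings as reported) and 865 to 1336 in wildtype (1309), the lowest in wildtype with the 25S covariate. Those called lower were 825 (without Zat12 replicate 1) to 1628 in Zat12 (1244), and 815 (25S covariate) to 1750 in wildtype (1689). Between untreated genotypes 26 (without Zat12 replicate 1) to 168 (without wildtype replicate 3) were called higher (99) and 16 to 74 lower (68). Under H2O2 53 (without wildtype H2O2 replicate 1) to 341 (25S covariate) were called higher (207) and 67 to 312 lower (191). For the interaction 0 to 4 were called higher (0) and 3 to 44 lower (15).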
